A study of Homo sapiens with 6 samples.

Results

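The aryl hydrocarbon receptor (AHR) axis was described through 7 genes chosen by name: the receptor AHR, its partner ARNT, the repressor AHRR, and the target genes CYP1A1, TIPARP, ALDH3A1 and UGT1A1. All 7 were present among the 19846 genes of the table. CYP1A1 was picked because its 3D over 2D difference was already known, and the other genes were picked for their place around it, so every 2D and 3D level of these 7 genes is given as a description with no test.

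The samples were HepG2 cells, an established human liver tumour line, at passages 7 to 9, all at 37 °C with 5% CO2. The 2D group (3 samples) was grown in plates in EMEM from a seeding of 200000 cells per square centimetre, with fresh medium every 2 days. The 3D group (3 samples) was grown in a hollow fiber bioreactor in an even mixture of EMEM and DMEM that held 10% serum, antibiotics and GlutaMAX, with medium recirculated at 23.5 mL/min and fed at 2 mL/hour. Gas flow is given as 200 mL/min for the 3D group and is not given for the plates. No AHR ligand is named for either group. Culture form, medium, feeding and, as far as given, gas flow differed together and cannot be told apart. The serum on the plates, the length of culture, and whether samples of a group were separate cultures are not given, and the p-values below therefore reflect only how far these samples vary, which may be technical.

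As background, AHR waits in the cytosol in a complex with HSP90. A planar aromatic ligand sends it to the nucleus, where it pairs with ARNT and binds response elements with the core GCGTG. CYP1A1, which oxidises aromatic hydrocarbons and also clears some of the receptor's own ligands, is the classic target in liver cells. AHRR and TIPARP are targets that act back on the receptor, AHRR as a repressor that competes for ARNT and TIPARP by attaching ADP-ribose. ARNT is also the partner of the hypoxia factors, whose elements often, but not always, have the core ACGTG.

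The promoter of CYP1A1 is shown because the gene differed most in counts between the cultures among the target genes, with the GCGTG core and the hypoxia-type core ACGTG in capitals. The latter is read on the other strand and so appears as CACGT. These are the 250 bases before the RefSeq start (GRCh38.p14, minus strand, chr15:74725529-74725778), 5′ to 3′.
CYP1A1: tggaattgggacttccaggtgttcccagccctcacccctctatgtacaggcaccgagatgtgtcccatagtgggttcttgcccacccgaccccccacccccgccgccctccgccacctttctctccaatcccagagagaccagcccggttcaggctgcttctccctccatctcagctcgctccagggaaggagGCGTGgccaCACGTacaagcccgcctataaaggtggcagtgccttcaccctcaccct
The GCGTG core began 57 bases before the start and the CACGT match 48 bases before it, so the motifs did not overlap. The gene span deposited with the counts begins further upstream, at 74725610, so both motifs lie inside that span. Over windows from 250 bases before to 50 bases after a start, on both strands, GCGTG occurred in 36.5% of the 35116 RefSeq promoters and ACGTG in 21.4%. A match is a description of letters, not a binding site.

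The other GCGTG matches are shown to compare their flanks. Promoters of 6 of the 7 genes were matched by symbol, all but ALDH3A1. The windows below hold the core in capitals, as GCGTG or, on the other strand, as CACGC.
AHR, 38 bases after the start (chr7:17298679-17298701, plus strand): tgttccgagaGCGTGccccggac
AHRR, 30 bases before its first listed start (chr5:321674-321698, plus strand): cgggcggctcGCGTGccggggtggg
AHRR, 42 bases before its second listed start (chr5:322558-322582, plus strand): agaagggtggGCGTGtgcgcgcgtt
TIPARP, 208 bases before its first listed start (chr3:156674372-156674396, plus strand): cgagaaaggaCACGCcccctcgcgg
TIPARP, 142 bases before the same start (chr3:156674438-156674462, plus strand): aacgaacgcgCACGCgcgcgcaggg
A further AHRR match lay 247 bases before its second listed start. The deposited spans of AHRR and TIPARP begin further upstream, at 304176 and 156673235, so all matches of these genes lie inside those spans. The windows of ARNT and UGT1A1 held no GCGTG, while those of UGT1A1 and AHR each held a palindromic CACGTG, which counts as 2 ACGTG matches since both strands were searched. The longer form TGCGTG, present in 9.54% of promoters, was in none of the windows of the 6 matched genes. Bases more than 250 before or 50 after a start were not searched, so matches further away are not covered.

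The labelled cell type was checked first. All 10 liver markers were in the table, and by the edgeR test across all genes 2 were higher in 3D (TF and APOA1), 2 were lower (APOB and AHSG) and 6 were not called. The share called was 40%, close to the 36.6% of all tested genes. Albumin (ALB), not called, was at 6237 ± 1322 CPM (counts scaled to library size) in 2D and 9849 ± 3472 CPM in 3D, and APOB fell from 17760 ± 1051 to 6631 ± 2107 CPM (SD, n = 3 per group). The summed level of the list ran from 43950 to 47870 CPM in 2D and from 32790 to 52500 CPM in 3D. Of the markers of other cells, 5 of 6 cholangiocyte genes summed to 697 to 900 CPM in 2D and 1053 to 1288 CPM in 3D, and 3 of 5 blood genes, nearly all of it from LYZ, to 980 to 1476 CPM and 436 to 1015 CPM. LYZ was not called (edgeR adjusted p = 0.0555), while the macrophage marker CD68 rose from 7.62 ± 1.77 to 32.0 ± 9.52 CPM (edgeR adjusted p = 0.000191). For 3 of 6 fibroblast genes the sum was 35.1 to 43.2 CPM in 2D and 19.3 to 26.0 CPM in 3D, and for 3 of 5 endothelial genes it was 2.00 to 4.79 CPM and 2.46 to 5.49 CPM. Among tested cholangiocyte genes KRT19, SPP1 and EPCAM were called higher in 3D (log2 fold changes 1.68, 1.17 and 0.51) and SOX9 lower (−0.45). The fibroblast genes PDGFRB and ACTA2 were called lower (−1.71 and −0.54), and no endothelial gene was called. The lowest total of a gene in the table was 10 counts over the 6 libraries, so no marker in it could be at 0 throughout. PTPRC, PDGFRA, DCN, LUM, KDR, TEK, CFTR and HBB were absent from it and so were not analysed here. The part of these markers in the results below was not tested, and in bulk samples fewer cells of a type and less RNA per cell cannot be told apart. Total counts were 16270361 to 17943513 in 2D and 9530795 to 15897621 in 3D. The smallest library, 3D replicate 1, lay apart from the other 3D libraries on the second principal component (37.86, against −17.20 and −27.54).

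In 3D culture CYP1A1, ALDH3A1 and UGT1A1 were higher than on plates, AHR was lower, and ARNT, AHRR and TIPARP overlapped between the cultures. Levels are CPM scaled by TMM, a correction for library composition, and fold changes are 3D over 2D from edgeR. Of the 7 genes, 4 had groups that did not overlap, where 50.5% of all 15314 tested genes had such groups, 25.6% wholly higher and 24.9% wholly lower in 3D. Since the genes were chosen with this contrast known, nothing is read from these counts.

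**Figure D1:**
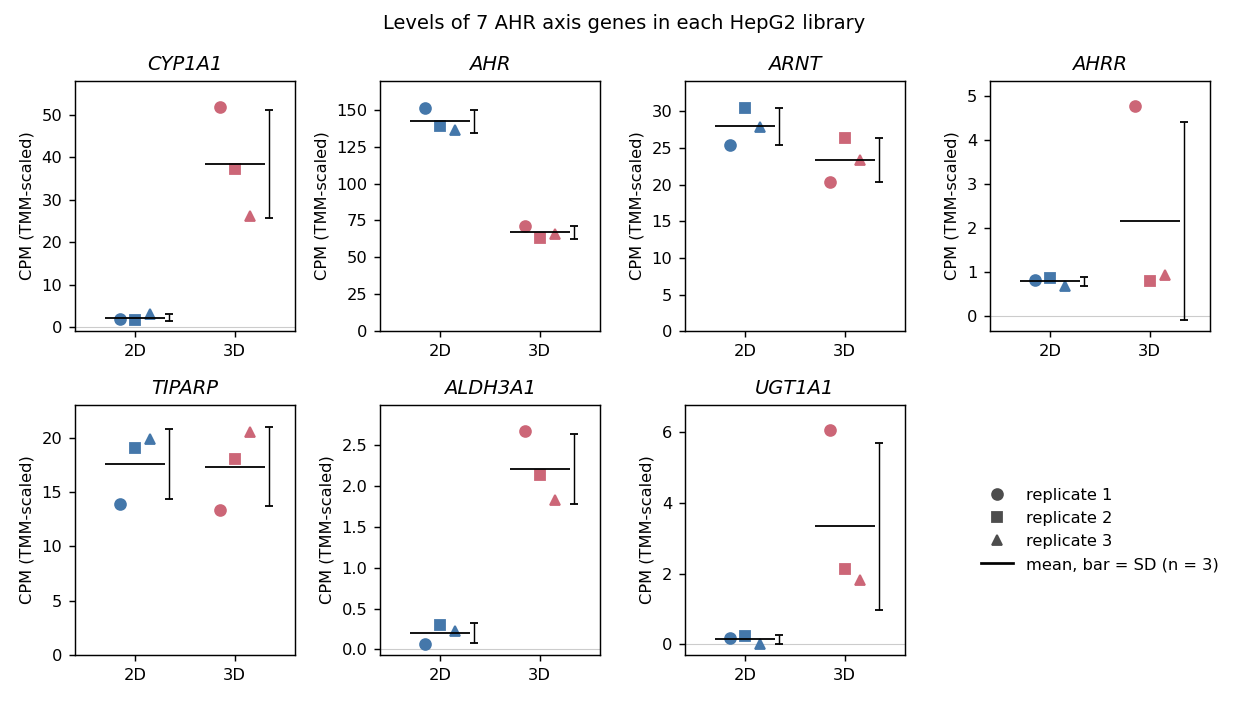
Level of each gene (CPM, linear axis) in the 3 libraries of 2D and of 3D culture, with a symbol per replicate, a line at the mean and a bar for the SD. CYP1A1, ALDH3A1 and UGT1A1 lie higher in all 3D libraries and AHR lower, while the AHRR mean in 3D rests on replicate 1 at 4.76 CPM.

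The receptor gene AHR (chromosome 7, 17298622 to 17346152, plus strand, hg38) stood at 151, 139 and 136 CPM in 2D replicates 1 to 3 and at 71.5, 63.2 and 66.2 CPM in 3D replicates 1 to 3. The groups were far apart compared with their spread: the lowest 2D library was 1.90-fold above the highest 3D library. The means were 142.1 ± 8.08 CPM in 2D and 66.95 ± 4.22 CPM in 3D (SD, n = 3 per group), a log2 fold change of −1.09 (SE 0.12), and 614 of the tested genes had a lower value. AHR has a long transcript (6276 bases, 40.9% GC), and the difference was smaller, at −0.72 (SE 0.12), once fold changes were corrected for transcript length and GC content. An antisense gene, AC003075.4, overlaps its start with at most 8.13 counts in any library.

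ARNT (chromosome 1, 150809705 to 150876768, minus strand), the partner that AHR needs to bind DNA, was at 25.5, 30.5 and 27.9 CPM in 2D and at 20.3, 26.4 and 23.4 CPM in 3D. The groups overlapped, with 3D replicate 2 above 2D replicate 1. The log2 fold change was −0.25 (SE 0.15), and −0.06 (SE 0.12) after correction for length and GC. Per kilobase of transcript, ARNT was at 0.254 ± 0.0339 of the AHR level in 2D and 0.452 ± 0.0860 in 3D (SD, n = 3 per group), so the partner was the scarcer transcript of the pair in all 6 libraries.

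CYP1A1 (chromosome 15, 74719542 to 74725610, minus strand) was at 2.00, 1.76 and 3.11 CPM in 2D, from 32, 29 and 56 counts. In 3D it was at 51.8, 37.2 and 26.3 CPM, from 522, 576 and 374 counts. The highest 2D library and the lowest 3D library were both replicate 3, and these were still 8.46-fold apart. Between libraries of the same number the 3D level was 25.8, 21.2 and 8.46 times the 2D level. The log2 fold change was 4.05 (SE 0.30), and only 35 of the tested genes had a higher one. The difference was 3.94 (SE 0.32) after correction for length and GC and 3.77 without 3D replicate 1.

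ALDH3A1 (chromosome 17, 19737984 to 19748943, minus strand), an aldehyde dehydrogenase that detoxifies aromatic and fatty aldehydes, was near the limit of detection in 2D. It had 1, 5 and 4 counts there (0.0626, 0.303 and 0.222 CPM) and 27, 33 and 26 counts in 3D (2.68, 2.13 and 1.83 CPM). The groups did not overlap, and all 3D libraries were within a narrow range. Over the summed counts of each group, 10 and 86, the 3D level was 10.9 times the 2D level (95% exact interval for counting error only, 5.66 to 23.6). The fitted log2 fold change was 3.42 (SE 0.49).

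UGT1A1 (chromosome 2, 233760248 to 233773299, plus strand), the enzyme that conjugates bilirubin with glucuronic acid, was near the limit of detection in 2D as well, at 0.188 and 0.243 CPM in replicates 1 and 2 and 0 in replicate 3, where 3 counts would be 0.167 CPM. In 3D it was at 6.05, 2.13 and 1.83 CPM, so replicate 1 stood well above the other 3D libraries. The 7 counts of 2D and 120 of 3D gave a 21.8-fold ratio (95% exact interval for counting error only, 10.2 to 55.3), and the fitted log2 fold change was 4.47 (SE 0.74), or 3.74 without 3D replicate 1. UGT1A1 shares its last exons with the other genes of the UGT1A locus, and its deposited counts held fractions, so the split between these genes is uncertain. UGT1A10, the other gene of the locus in the table, never exceeded 5.87 counts, and with both summed the ratio was 23.8 (95% exact interval for counting error only, 11.2 to 60.2). ALDH3A1 and UGT1A1 passed the filter on low counts through their 3D libraries alone, since 0 of 3 2D libraries reached its 0.622 CPM.

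TIPARP (chromosome 3, 156673235 to 156706770, plus strand), the ADP-ribosyltransferase that acts back on AHR, overlapped between the cultures. Its levels were 13.9, 19.1 and 19.9 CPM in 2D and 13.4, 18.1 and 20.6 CPM in 3D. Both groups covered nearly the same range, with replicate 1 the lowest in each. The log2 fold change was −0.02 (SE 0.20), with a sign that changed between processing settings (0.18 after correction for length and GC, −0.17 without 2D replicate 1). The antisense gene TIPARP-AS1 overlaps its start, with 15 to 32 counts a library.

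AHRR (chromosome 5, 304176 to 438291, plus strand), the repressor of AHR, was low in 5 of 6 libraries. It was at 0.814, 0.849 and 0.666 CPM in 2D and at 4.76, 0.775 and 0.914 CPM in 3D. The 48 counts of 3D replicate 1 stood against 12 to 14 counts in each of the other libraries, although that library had the fewest counts in all. The log2 fold change of 1.39 (SE 0.67) was 0.11 without 3D replicate 1, and 0.82 by limma-voom. AHRR overlaps PDCD6 on the same strand, a gene with 543 to 920 counts a library, and how reads in the shared stretch were assigned is not given.

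The levels thus had a different order in each culture. Per kilobase of transcript, a scale on which genes can be compared, AHR led in 2D at 22.6 ± 1.29, followed by ARNT at 5.72 ± 0.513, TIPARP at 4.21 ± 0.777 and CYP1A1 at 0.853 ± 0.268 CPM per kb (SD, n = 3). The lowest ARNT library lay above the highest TIPARP library, and AHRR (0.137 ± 0.0171), ALDH3A1 (0.102 ± 0.0636) and UGT1A1 (0.0423 ± 0.0375) came last, with ALDH3A1 overlapping each of the others. In 3D, CYP1A1 came first at 14.3 ± 4.76 CPM per kb, within its spread of AHR at 10.7 ± 0.672, with ARNT at 4.79 ± 0.623 and TIPARP at 4.15 ± 0.875. ALDH3A1 (1.15 ± 0.224), UGT1A1 (0.985 ± 0.695) and AHRR (0.380 ± 0.40) followed, with UGT1A1 overlapping each of the others and every ALDH3A1 library above every AHRR library. The ratio of CYP1A1 to AHR per kilobase was 0.0309, 0.0296 and 0.0533 in 2D and 1.69, 1.38 and 0.929 in 3D.

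**Figure D2:**
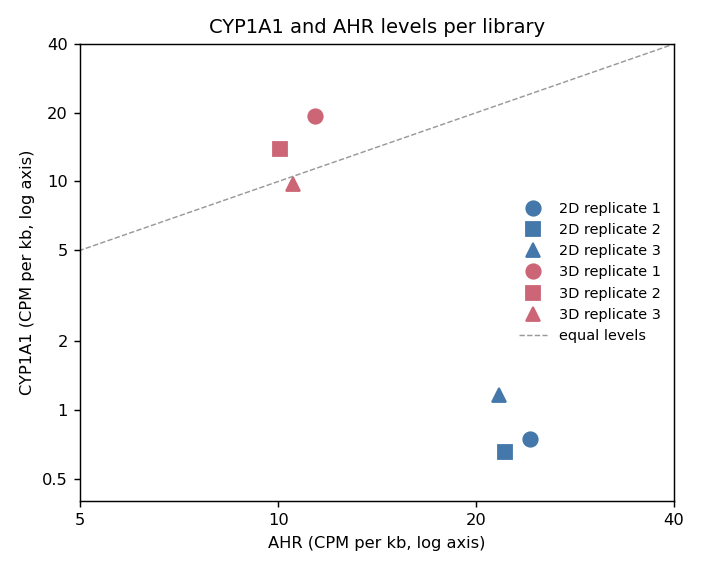
CYP1A1 level against AHR level in each library, both in CPM per kilobase of transcript on log axes, with a dashed line where the levels are equal. The 2D libraries lie near 22.6 on the AHR axis and far under the line, and the 3D libraries near 10.7 and close to it.

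Within 3D culture, replicate 1 had the highest CYP1A1, ALDH3A1, UGT1A1, AHRR and AHR levels of the group and the lowest ARNT and TIPARP levels. Replicate 3 had the lowest CYP1A1, ALDH3A1 and UGT1A1 levels. Across the 6 libraries, as a description, the Pearson correlation of log2 CPM with CYP1A1 was 0.972 for ALDH3A1, 0.933 for UGT1A1, 0.570 for AHRR, −0.124 for TIPARP, −0.744 for ARNT and −0.972 for AHR. These libraries form 2 separate groups, so any gene that differs between them correlates with CYP1A1.

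The genes most like CYP1A1 in pattern were sought among 11310 genes with a mean of at least 5 CPM, of which 706 had a correlation above 0.95 over the 6 libraries. GAL3ST1, a sulfotransferase that makes sulfatide, came first (r = 0.9995), at 2.32, 2.36 and 3.22 CPM in 2D and 20.3, 16.1 and 13.0 CPM in 3D. MARCKSL1, TRAPPC1, CH507-152C13.3, TFDP1, GNAI2, OAF and MAEA followed, with r of 0.9956 to 0.9980. All of these genes had the same order of libraries within 3D as CYP1A1, which picking them by correlation favours. For AHR, 549 genes were above 0.95, led by SPRY1, an inhibitor of growth factor signalling (r = 0.9990), at 96.6, 84.9 and 86.3 CPM in 2D and 47.1, 40.9 and 42.7 CPM in 3D. PTPRN2, PARD3, RBAK, TRIM4, ARHGEF2, MYO10 and NOMO1 followed, with r of 0.9962 to 0.9988.

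Beyond the 7 genes, 7 lists of the pathway were compared with the edgeR quasi-likelihood test, and p-values were adjusted over all 15314 genes. Of 111 listed genes 83 were tested, and 23 rose and 23 fell in 3D (55.4% called, against 36.6% of all tested genes, 19.0% higher and 17.6% lower), with a median log2 fold change of −0.01 beside 0.02 for all genes. The lists were chosen with earlier results of these data known, so nothing is read from these shares or those of single lists. CYP1A2, CYP1B1, UGT1A6, TDO2, IDO1 and IDO2 were not analysed here.

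**Figure D3:**
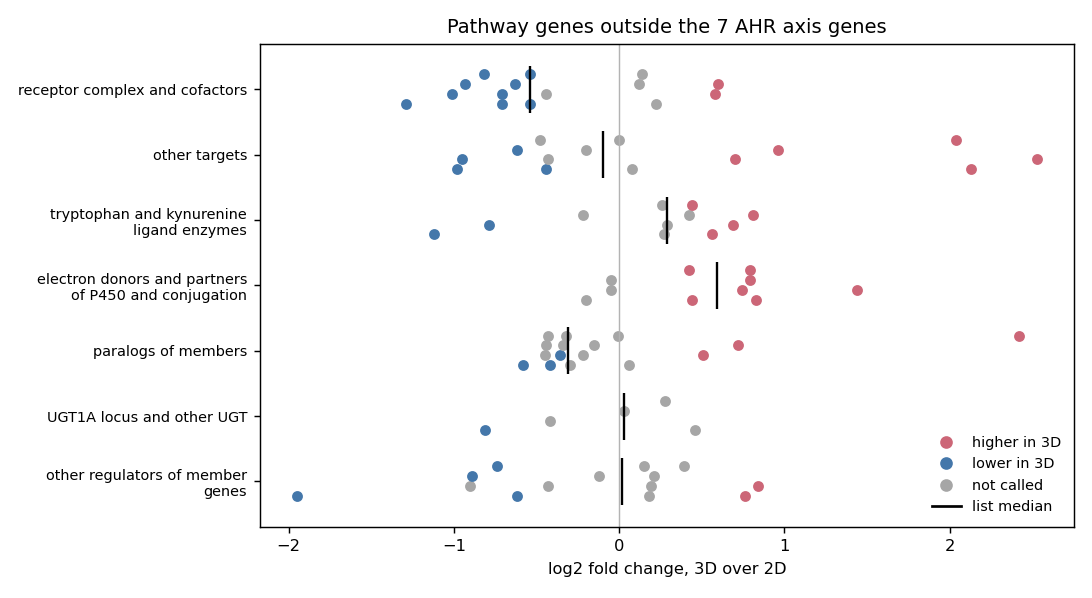
Log2 fold change (3D over 2D) of each tested gene of the 7 pathway lists, coloured by its edgeR call, with a line at each list's median. The cofactor list lies mostly left of 0 (median −0.54) and the electron donor and partner list right of it (median 0.59).

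In the receptor complex and cofactor list 2 of 15 genes rose and 9 fell (median −0.54). HSP90AA1, the inducible HSP90 chaperone, rose from 914.8 ± 98.2 to 1390 ± 170 CPM (edgeR adjusted p = 0.0086 for a log2 fold change of 0.60, SE 0.15). SMARCA4, a chromatin remodelling ATPase, rose from 117.7 ± 6.01 to 175.9 ± 30.8 CPM (log2 0.58). The genes that fell included the coactivator EP300, an acetyltransferase, from 184.9 ± 10.5 to 97.0 ± 8.01 CPM (edgeR adjusted p = 0.000239 for a log2 fold change of −0.93). NRIP1, a nuclear receptor corepressor, fell from 221.1 ± 25.2 to 109.9 ± 19.97 CPM (log2 −1.01, and −0.56 after correction for length and GC), and KLF6, a zinc finger factor that can pair with AHR, from 410.6 ± 93.0 to 167.8 ± 74.9 CPM. ARNT2, the second ARNT protein, averaged 4.93 ± 0.657 CPM on plates and 3.59 ± 0.964 CPM in the bioreactor (edgeR adjusted p = 0.209, log2 −0.44, and −0.27 without 3D replicate 1). With length and GC content corrected 2 of these 15 genes rose and 7 fell, with a median of −0.32.

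Of 25 other reported AHR targets 14 were tested, and 5 rose and 4 fell (median −0.10). NQO1, a quinone reductase that is a target of both AHR and NRF2, was at 279, 264 and 321 CPM in 2D and at 438, 599 and 645 CPM in 3D (edgeR adjusted p = 0.000946 for a log2 fold change of 0.96, SE 0.16). Unlike CYP1A1 it was lowest in replicate 1 among the 3D libraries. GSTA1 and GSTA2, near-identical glutathione transferases whose reads are hard to tell apart, rose from 2.35 ± 0.960 to 13.6 ± 7.80 CPM and from 0.733 ± 0.211 to 3.05 ± 0.898 CPM. CD36, a fatty acid transporter, rose from 0.679 ± 0.386 to 3.03 ± 0.462 CPM (log2 2.13, SE 0.43). In 2D GSTA2 had 9, 16 and 12 counts and CD36 had 4, 13 and 18. Both genes passed the filter on low counts only with 3D libraries counted in. The drug exporter ABCG2 fell from 13.7 ± 2.88 to 6.97 ± 0.689 CPM (edgeR adjusted p = 0.00307 for a log2 fold change of −0.98), and the lipid enzyme LPCAT2 from 68.1 ± 6.43 to 35.3 ± 2.76 CPM (log2 −0.95, and −0.58 after correction for length and GC). CDKN1B, the cell cycle inhibitor p27, fell from 96.6 ± 9.26 to 62.8 ± 8.55 CPM. The transcription factor NFE2L2, better known as NRF2, averaged 220.0 ± 11.6 CPM on plates and 163.5 ± 38.7 CPM in the bioreactor (edgeR adjusted p = 0.0588, log2 −0.43, and −0.27 without 3D replicate 1). It was called lower by DESeq2 (adjusted p = 0.0342), by limma-voom (0.0477), after correction for length and GC (edgeR adjusted p = 0.0321) and without 3D replicate 3 (0.0214).

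Among enzymes of electron supply and conjugation 7 of 10 rose and 3 were not called (median 0.59), and 5 rose when any 1 of the 2D libraries was left out. After correction for length and GC 7 rose and 1 fell (median 0.44), and with the replicate block added 6 rose and 1 fell. CYB5A, the cytochrome b5 that passes electrons to P450 enzymes, rose from 40.7 ± 3.42 to 110.6 ± 6.34 CPM (edgeR adjusted p = 2.92e-05 for a log2 fold change of 1.44, SE 0.12). CYB5R3, its reductase, rose from 123.9 ± 9.58 to 221.1 ± 32.8 CPM, and CYB5B, the mitochondrial form, from 141.3 ± 18.9 to 244.1 ± 33.4 CPM. POR, the main electron donor of CYP1A1, averaged 425.2 ± 43.7 CPM on plates and 371.3 ± 65.1 CPM in the bioreactor (edgeR adjusted p = 0.335, log2 −0.20, between −0.32 without 3D replicate 1 and −0.07 without 3D replicate 2). With length and GC content corrected POR was called lower (edgeR adjusted p = 0.0114 for a log2 fold change of −0.44).

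Enzymes that make or use tryptophan-derived ligands of AHR went both ways, with 4 of 11 tested genes higher and 2 lower (median 0.29). After correction for length and GC 2 rose and 1 fell, and 2 rose without 2D replicate 1, without 2D replicate 3 or without 3D replicate 2. QPRT, a late enzyme of the kynurenine pathway, rose from 197.7 ± 23.8 to 346.5 ± 45.3 CPM (edgeR adjusted p = 0.00127 for a log2 fold change of 0.81). MAOB rose from 28.6 ± 1.03 to 42.2 ± 2.30 CPM while MAOA, the other monoamine oxidase, fell from 48.7 ± 6.37 to 22.5 ± 4.54 CPM. KYNU, kynureninase, fell from 40.4 ± 4.35 to 23.2 ± 7.74 CPM (edgeR adjusted p = 0.0158 for a log2 fold change of −0.79), a call that was lost after correction for length and GC (edgeR adjusted p = 0.778 for a log2 fold change of −0.11).

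Of 16 tested paralogs of the 7 genes 3 rose and 3 fell (37.5% called, close to the 36.6% of all genes). These counts were unstable: 1 rose and 1 fell without 2D replicate 1 or 2, 3 rose and 1 fell without 2D replicate 3, 1 rose and 3 fell without 3D replicate 2, and 2 rose and 5 fell without 3D replicate 1. HIF3A had 8, 7 and 13 counts in 2D and passed the filter on low counts only with 3D libraries counted in. This hypoxia factor, which also pairs with ARNT, rose from 0.549 ± 0.154 to 2.98 ± 1.69 CPM (edgeR adjusted p = 0.00307 for a log2 fold change of 2.42, SE 0.49). HIF1A, which competes for the same partner, averaged 180.3 ± 18.6 CPM on plates and 146.5 ± 21.95 CPM in the bioreactor (edgeR adjusted p = 0.111, log2 −0.30, and −0.04 after correction for length and GC), and was called lower without 3D replicate 2 (0.0321). CLOCK, a circadian factor of the same protein family, fell from 41.2 ± 1.74 to 27.7 ± 3.05 CPM (log2 −0.58), but was at −0.03 after correction for length and GC (edgeR adjusted p = 0.868). Of 5 tested genes of the list for the UGT1A locus and other UGT genes 4 were not called and 1 fell: UGT2A3, from 125.4 ± 22.7 to 71.3 ± 21.2 CPM (edgeR adjusted p = 0.0181, and 0.0514 without 2D replicate 2). In the fit without 3D replicate 1, 1 of these genes rose, and in that without 3D replicate 3, 2 fell.

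Of 14 other regulators known to act on these genes 2 rose and 4 fell (42.9% called, against 36.6% of all genes; median 0.01). NR1I2, the receptor PXR that drives UGT1A1 in response to drugs, was at 8.95, 14.7 and 12.3 CPM in 2D and at 25.2, 18.9 and 20.6 CPM in 3D (edgeR adjusted p = 0.00682 for a log2 fold change of 0.84, SE 0.20). CEBPA, a liver differentiation factor, rose from 125.3 ± 17.5 to 212.1 ± 9.37 CPM (log2 0.76, and 0.49 after correction for length and GC). CEBPB fell from 354.2 ± 37.5 to 91.8 ± 33.7 CPM (log2 −1.95, SE 0.25). PPARA, a fatty acid receptor, had a log2 fold change of −0.89 and SP1, a general promoter factor, of −0.74 (−0.51 and −0.38 after correction for length and GC).

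**Figure D4:**
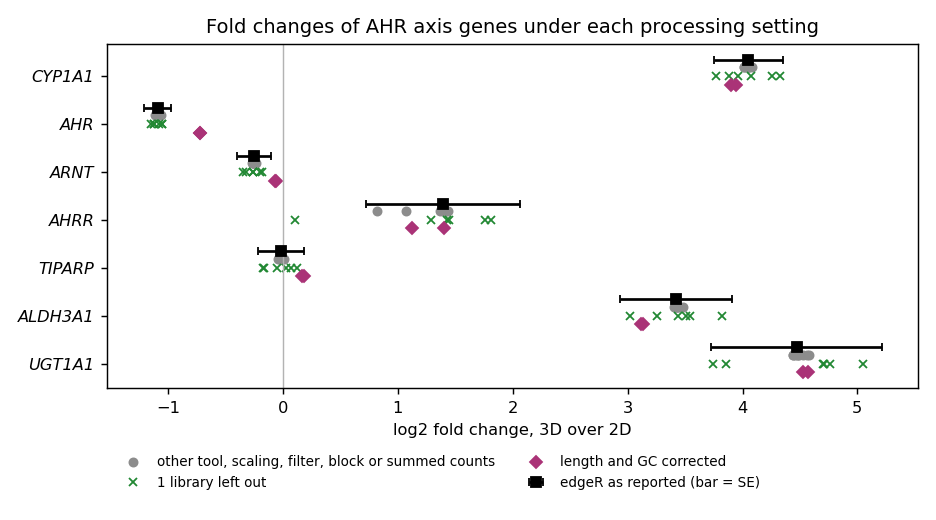
Log2 fold change (3D over 2D) of each of the 7 genes as reported (square, bar for the SE) and under each other processing setting. CYP1A1, ALDH3A1 and UGT1A1 stay above 3 in all settings run, AHR moves from −1.09 to −0.72 after correction for length and GC, and AHRR drops to 0.11 in the run without 3D replicate 1.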

How the data were processed

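RNA of 3 2D and 3 3D HepG2 samples was measured by sequencing. STAR 2.4.1d, Partek and hg38 are named in the submitters' processing notes. What annotation, counting method and strand setting were used is not given in the sources used here. Deposited values are estimated counts per gene, made by the authors and not scaled. They were rounded to whole numbers. The table's stop position lay 1 base past the GENCODE 29 end in 98.3% of 15674 genes matched by chromosome, symbol and start, so 1 was subtracted. Genes were tested with edgeR 4.0.16 in R 4.3.3 (filterByExpr, TMM, robust quasi-likelihood fit on culture, Benjamini-Hochberg adjustment), and called at an adjusted p under 0.05. Standard errors came from the F statistic. Lengths are those of the longest transcript in GENCODE 29, coding ones first. Length and GC content, known for 88.1% of tested genes, were corrected by loess (span 0.5). Alternatives used DESeq2 1.42.0, limma-voom (limma 3.58.1), other scalings and filters, a replicate block and leaving out each library. Summing UGT1A1 with UGT1A10 was added after seeing the data.

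The 7 genes and all lists were chosen with earlier results of these data known. Pathway genes named were the called genes of each list with the largest changes (at most 3 up and 3 down, at 1 CPM or more), and 10 set by name; some that qualify are left out or not reported here. Genes like CYP1A1 or AHR were the 8 with the highest correlation of log2 CPM (prior count 3). Replicates of each group differed by more than sampling noise (chi-square per degree of freedom 11.2 to 29.5).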

Additional observations from a re-analysis of the deposited data

How the results depend on the processing

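CYP1A1, ALDH3A1 and UGT1A1 were higher and AHR lower in 3D in every alternative run. The groups of these genes did not overlap, so leaving out 1 library could hardly change the direction. The CYP1A1 log2 fold change lay between 3.77 and 4.33 with 1 library left out. AHR was at −0.72 after correction for length and GC, with and without the replicate block, and the cause was not tested. The AHRR difference rested on 3D replicate 1 (0.11 without it). AHRR could not be fitted with a filter of 1 CPM in 3 samples, which it did not pass. Low counts limit ALDH3A1 and UGT1A1 in 2D, with 10 and 7 counts in all.

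With 1 library left out, the numbers of all genes called higher ranged from 1938 (without 2D replicate 1) to 2817, and lower from 1828 to 2792. They were 2910 and 2697 with all 6. Pathway genes called then ranged from 18 to 23 higher and 19 to 26 lower. Over 37 named or eligible pathway genes and 16 alternatives, 38 calls were lost, 9 were gained and 0 reversed.

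Replicate numbers do not pair the samples in the labels. Deviations of same-numbered libraries correlated at 0.053, −0.009 and −0.078, and 2 of 6 samples correlated best with their own number. With the replicate block CYP1A1 was at 4.01, 2747 genes were called higher and 2611 lower, and 22 pathway genes rose and 22 fell. NFE2L2 was called lower with it (edgeR adjusted p = 0.038), also after correction for length and GC (0.0331).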
